A study of Homo sapiens with 38 samples.

Results

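2-Deoxyglucose (2DG) was given for 18 h to HT-1080 cells, a human fibrosarcoma line, and the cells' transcripts were compared with those of untreated HT-1080 cells. The 3 arrays labelled HT-1080_2DG with no added inhibitor were taken by their titles, as were the 6 arrays labelled HT-1080_ctrl, out of 38 arrays in the whole series. The dose of 2DG and the culture time of the controls are not given in the sources used here. Both groups carry normal mitochondrial DNA and received no respiratory inhibitor. The labels give 1 array per sample of total RNA from cultured cells, and they do not say how many separate passages the replicates came from, so a p-value speaks of array-to-array spread, which may be technical. Each description of a 2DG array names 1 control array as its counterpart: control replicate 2 for 2DG replicate 1, replicate 4 for replicate 2, and replicate 5 for replicate 3. HT-1080 is 1 cell line, so the results describe that line alone. The series as a whole asks how mitochondrial function bears on the unfolded protein response of tumour cells deprived of glucose.

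2DG is a glucose analogue that hexokinase phosphorylates but that glycolysis cannot carry further, and it also enters glycan synthesis in place of mannose, so that proteins of the endoplasmic reticulum (ER) are glycosylated poorly. Cells meet unfolded ER proteins with the unfolded protein response, in which ATF6 and XBP1 raise chaperones and the kinase PERK, through the translation factor eIF2 and the transcription factor ATF4, raises amino acid transport and synthesis. Phosphorylated hexoses are sensed by the transcription factor MondoA with its partner MLX, of which TXNIP is the best known target. Cell division genes are read from promoters with a cell-cycle homology region (CHR) or an E2F site.

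Promoters of 5 genes on which the results below turn are shown first, each with the short motif known for its pathway in capitals. They were chosen among genes with a match. HSP90B1, CDCA3, POLE2 and SLC3A2 also had a match and are not shown. The same look-up gave no match for TRIB3 (C/EBP-ATF element), KIF20A (CHR), or E2F8, SKP2 and RRM2 (E2F site). Each stretch is the 150 bases before the gene start in RefSeq on GRCh38.p14, printed 5′ to 3′ on the gene's strand. HSPA5 (chr9:125241344-125241493, minus strand) has an ER stress response element, TXNIP (chr1:145996580-145996729, minus strand) a carbohydrate response element, ASNS (chr7:97872409-97872558, minus strand) a C/EBP-ATF element, and PLK1 (chr16:23678739-23678888, plus strand) and HMMR (chr5:163460482-163460631, plus strand) a CHR, which HMMR has at 2 places in direct succession.
HSPA5: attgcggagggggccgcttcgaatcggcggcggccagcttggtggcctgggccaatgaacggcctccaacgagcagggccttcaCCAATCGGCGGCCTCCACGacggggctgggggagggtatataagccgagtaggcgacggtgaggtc
TXNIP: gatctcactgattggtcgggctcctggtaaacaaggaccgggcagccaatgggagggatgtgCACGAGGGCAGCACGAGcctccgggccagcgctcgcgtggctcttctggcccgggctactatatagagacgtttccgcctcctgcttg
ASNS: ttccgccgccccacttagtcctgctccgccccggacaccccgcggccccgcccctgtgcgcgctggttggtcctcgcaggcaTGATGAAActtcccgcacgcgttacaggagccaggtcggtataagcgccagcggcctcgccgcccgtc
PLK1: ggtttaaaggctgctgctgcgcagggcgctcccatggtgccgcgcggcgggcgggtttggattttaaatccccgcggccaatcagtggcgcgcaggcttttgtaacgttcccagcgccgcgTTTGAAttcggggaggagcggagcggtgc
HMMR: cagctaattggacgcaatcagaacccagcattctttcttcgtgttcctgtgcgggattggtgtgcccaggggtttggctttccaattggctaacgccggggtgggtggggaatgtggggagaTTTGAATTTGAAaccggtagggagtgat

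The motifs were searched on both strands of windows of 300 bases, from 250 before to 50 after the gene start, for 7986 of the 9548 genes tested, and a gene with several listed starts counted if any window matched. The ER stress response element, CCAAT and CCACG with 9 bases of any kind between them, was in 15 of the 7986 promoters (0.188%) and in 7 of the 21 ER chaperone promoters (33.3%). TTTGAA, the CHR, was in 1124 (14.1%) of all and in 34 of 46 promoters of the mitosis list (73.9%). TTTGGCGC, the E2F site, was in 115 (1.44%) of all and in 11 of 41 promoters of the DNA replication list (26.8%). TGATGNAA, the C/EBP-ATF element, was in 233 (2.92%) of all and in 5 of 22 promoters of the ATF4 list (22.7%). The carbohydrate response element, CACGNG repeated after 5 bases of any kind, was in 13 (0.163%) of all and in 1 of the 5 promoters of the MondoA list, that of TXNIP. Among genes that rose, the ER stress response element was found in 11 of 946 promoters (1.16%) and the C/EBP-ATF element in 54 (5.71%), and among genes that fell the CHR was found in 180 of 905 (19.9%) and the E2F site in 28 (3.09%). A match describes letters in the window and is not a test of binding.

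The deposited intensity, as the trimmed mean of all probe sets, was 122.7 to 127.6 on the 2DG arrays and 124.1 to 136.0 on the controls. With 3 arrays against 6, precision is set by how many arrays there are. The signals below were brought to the same trimmed mean, 113.7, on every array. The ratio of the 3′ to the 5′ probe set was 0.976 to 0.986 for GAPDH on 2DG arrays and 0.922 to 1.03 on controls, and 1.25 to 1.33 for ACTB on 2DG arrays and 1.18 to 1.26 on controls. The part of that ACTB difference in the results was not tested. Of 10 mesenchymal markers 8 passed the filter on low signals, with vimentin (VIM) at 8379 to 10650 on every array and S100A4 and TAGLN at 42.3 or less. Summed over the list, the mesenchymal markers came to 14390 to 17850 on 2DG arrays and 15220 to 17840 on controls. VIM was the largest part of that sum, and single markers differed. SPARC had 1479 to 1598 on 2DG arrays and 2272 to 2639 on controls, and LOX 449.9 to 853 and 129.9 to 349.8. FN1 ranged from 79.6 to 741 over the arrays. Of 10 colon epithelial markers, checked since the series also holds HT-29 colon cells, only KRT8 passed the filter, EPCAM stayed between 1.10 and 7.83, and the sums were 325 to 410 on 2DG arrays and 442 to 617 on controls.

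Of 9548 genes tested, 1134 rose under 2DG (11.9%) and 1083 fell (11.3%) by limma at a Benjamini-Hochberg adjusted p under 0.05. Of these, 187 rose and 97 fell at least 2-fold. The median log2 change over all genes was 0.02, so the changes below are relative to a middle near 0. In 1126 genes (11.8%) all 2DG arrays lay above all controls, and in 1080 (11.3%) all lay below. Of the 2217 genes called (23.2%), 2192 moved the same way in each 2DG array relative to the control that its description names. These pairs use the same arrays as the calls, so such agreement is no separate support, and its share over all genes was not counted. Without 2DG replicate 2, 647 genes rose and 637 fell. Over all 38 arrays in 1 fit, with the described control set as a block (the 38-array block), 576 rose and 449 fell. Counts of 1 or 2 list members given below rest on single genes, and several moved by 1 or 2 when single arrays were left out.

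**Figure D1:**
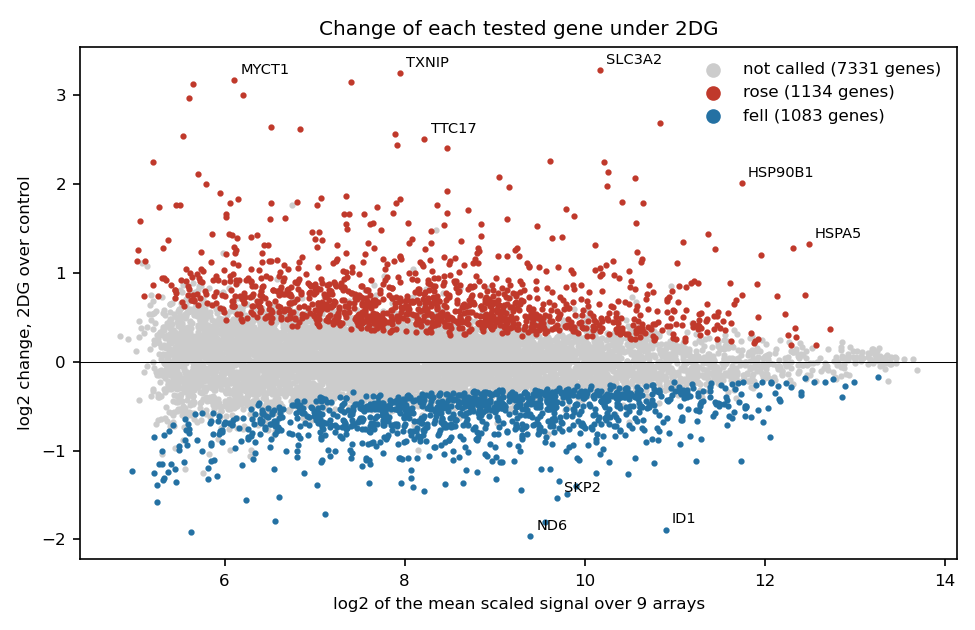
Each point is 1 of 9548 genes, with the log2 of its mean scaled signal over 9 arrays on the x axis and its log2 change, 2DG over control, on the y axis, coloured by whether it rose (1134), fell (1083) or was not called. SLC3A2 is the highest of the labelled rises at 3.28, and ND6 the lowest of the labelled falls at -1.96.

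The largest rises without overlap between the groups joined amino acid transport and hexose-sensing genes to several genes that controls expressed near the floor. SLC3A2, the heavy chain shared by several amino acid exchangers of the plasma membrane, had signals of 3005, 3338 and 2283 on the 2DG arrays against 239 to 396 with a median of 274 on the controls. No control came near the 2DG range, and the log2 change of SLC3A2 was 3.28 (SE 0.16, adjusted p = 7.85e-08). TXNIP, an arrestin-fold protein that binds thioredoxin and restrains glucose uptake, had 624, 654 and 579.7 on the 2DG arrays against 51.2 to 76.6 with a median of 57.5 on the controls. Its 2DG arrays lay within a narrow band far above every control, and the log2 change of TXNIP was 3.25 (SE 0.15, adjusted p = 7.36e-08), with 2 further probe sets that moved the same way. ASNS, which makes asparagine, had 4974, 3815 and 3642 on the 2DG arrays against 433 to 1238 with a median of 580.4 on the controls, the highest control being replicate 6. The groups stayed apart, and the log2 change of ASNS was 2.69 (SE 0.25, adjusted p = 1.57e-05). TTC17, a tetratricopeptide repeat protein, had 689, 710 and 603 on the 2DG arrays against 87.2 to 140.2 with a median of 113 on the controls. On the probe set used the log2 change of TTC17 was 2.51 (SE 0.14, adjusted p = 3.65e-07), while the other 3 probe sets of TTC17 gave smaller changes, from 0.66 to 0.87.

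The 12 largest rises were taken only from genes without overlap, so their separation follows from the rule. Of these 12, 6 had every control below the filter signal of 45.5, so they entered the test only through the 2DG arrays. MYCT1, named as a MYC target, had 232, 139 and 161 on the 2DG arrays against 8.94 to 23.8 with a median of 12.9 on the controls, and its log2 change was 3.18 (SE 0.26, adjusted p = 8.58e-06). C5AR1, the receptor for the complement fragment C5a, had 150.1, 128 and 109 on the 2DG arrays against 3.33 to 18.4 with a median of 10.7 on the controls, and its log2 change was 3.13 (SE 0.33, adjusted p = 5.1e-05). LINC00324, a long noncoding RNA, had 122, 209.8 and 217 on the 2DG arrays against 5.45 to 31.1 with a median of 19.7 on the controls, and its log2 change was 3.01 (SE 0.35, adjusted p = 0.000101). In none of these did the groups overlap. KLHDC7B, a kelch domain protein, had 139, 161 and 73.1 on the 2DG arrays against 4.83 to 18.9 with a median of 8.91 on the controls, and its log2 change was 2.97 (SE 0.34, adjusted p = 8.01e-05). OSCAR, a collagen receptor known from osteoclasts, had 181, 287 and 173 on the 2DG arrays against 15.4 to 44.5 with a median of 30.8 on the controls, and its log2 change was 2.64 (SE 0.28, adjusted p = 5.04e-05). SPRR2B, a small proline-rich protein of the cornified envelope, had 166, 83.6 and 72.8 on the 2DG arrays against 4.07 to 35.1 with a median of 13.5 on the controls, and its log2 change was 2.54 (SE 0.48, adjusted p = 0.00244). The 2DG arrays of these 3 were also above all controls, with replicate 3 the lowest of the treated arrays in each. In all, 30 of the 1134 genes that rose had every control below the filter signal.

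**Figure D2:**
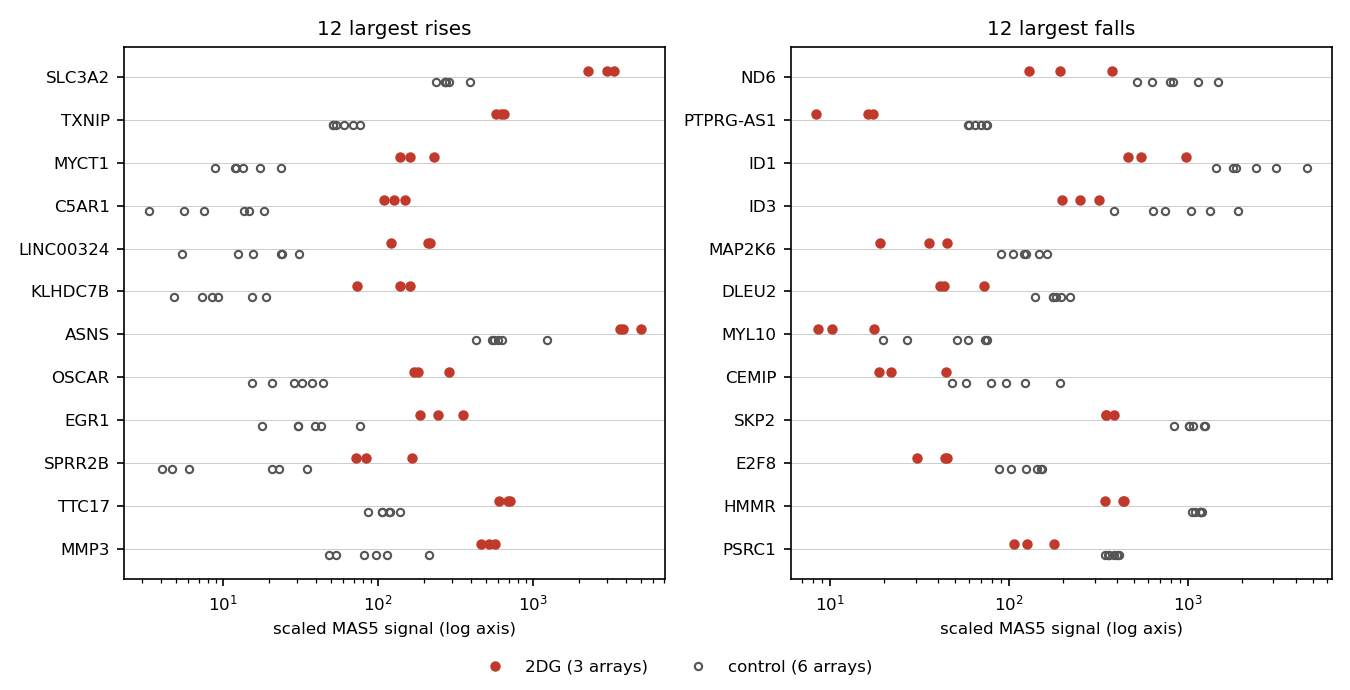
Scaled MAS5 signal on a log axis for the 12 largest rises (left) and the 12 largest falls (right) among genes whose groups did not overlap, each filled point 1 of 3 2DG arrays and each open point 1 of 6 control arrays. TXNIP lies at 579.7 or more on 2DG arrays and at 76.6 or less on controls, and HMMR at 436 or less on 2DG arrays and at 1048 or more on controls.

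Around TXNIP, the list of MondoA targets and network genes had 6 measured members, of which 3 rose (50%, against 11.9% of all genes) and 0 fell. ARRDC4, the arrestin-domain relative of TXNIP and the other classical MondoA target, did not pass the filter and was not tested, with signals of 72.3, 66.1 and 45.2 on the 2DG arrays against 1.83 to 14.7 with a median of 8.51 on the controls. Its 2DG arrays lay above every control. ARRDC3, another relative, had 75.0, 138 and 94.7 on the 2DG arrays against 31.8 to 91.2 with a median of 50.5 on the controls. Its groups overlapped, as replicate 1 lay within the control range, and the log2 change of ARRDC3 was 0.92 (SE 0.30, adjusted p = 0.0438). HBP1, a high-mobility-group repressor of cell cycle genes, had 264, 374 and 389.6 on the 2DG arrays against 196 to 311 with a median of 214 on the controls, again with replicate 1 within the control range, and the log2 change of HBP1 was 0.54 (SE 0.17, adjusted p = 0.0385). Without 2DG replicate 2 the adjusted p was 0.212 for ARRDC3 and 0.154 for HBP1, and without replicate 3 it was 0.0936 and 0.155. Both calls were also lost without control replicate 1 or control replicate 2, ARRDC3 without control replicate 4 (adjusted p = 0.0578) or 6 (adjusted p = 0.0750), and HBP1 without control replicate 3 (adjusted p = 0.0662) or 5 (adjusted p = 0.0696), so that only TXNIP of the list held in every such fit.

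Genes of the ER were raised broadly and beyond the chaperones. Of 23 measured chaperones and folding enzymes 22 rose (95.65%, against 11.9% of all genes) and 0 fell, with a median log2 change of 1.33. Of 14 genes of ER-associated degradation 10 rose (71.4%) and 0 fell, with a median of 0.65. HSPA5, the main ER chaperone, had 10290, 9643 and 8885 on the 2DG arrays against 3355 to 4242 with a median of 3790 on the controls. Its groups were far apart relative to their spread, and the log2 change of HSPA5 was 1.33 (SE 0.08, adjusted p = 5.85e-07), while its other probe set gave a larger change of 2.11. HSP90B1, the HSP90 of the ER, had 7502, 6876 and 6280 on the 2DG arrays against 1501 to 1844 with a median of 1713 on the controls. The log2 change of HSP90B1 was 2.01 (SE 0.08, adjusted p = 4.33e-08), and its other probe set gave 1.42. CRELD2, a secreted ER stress protein, had 1838, 1653 and 1495 on the 2DG arrays against 259.8 to 411 with a median of 351.1 on the controls, and its log2 change was 2.26 (SE 0.15, adjusted p = 1.92e-06). In each of these replicate 1 was the highest and replicate 3 the lowest of the 2DG arrays, and none overlapped the controls. SEL1L, the scaffold of the HRD1 ubiquitin ligase that retrieves misfolded proteins, had 1414, 1158 and 874 on the 2DG arrays against 260.3 to 303 with a median of 284 on the controls, and its log2 change was 1.97 (SE 0.14, adjusted p = 1.92e-06). UBE2J1, the ubiquitin-conjugating enzyme of the same route, had 775, 703 and 744 on the 2DG arrays against 262 to 353 with a median of 304 on the controls, and its log2 change was 1.25 (SE 0.11, adjusted p = 1.52e-05).

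Genes of the secretory route rose too. Of 37 measured genes of ER translocation and vesicle traffic 24 rose and 0 fell, with a median log2 change of 0.46, set against 11.9% of all genes that rose. In the 38-array block 13 rose. MIA3, the cargo receptor for collagen at ER exit sites, had 336, 303 and 278 on the 2DG arrays against 99.2 to 157 with a median of 129.8 on the controls. No control reached the 2DG arrays, and the log2 change of MIA3 was 1.22 (SE 0.16, adjusted p = 0.000243). SEC24A, a cargo-binding subunit of the COPII coat, had 575, 585 and 504 on the 2DG arrays against 203 to 283 with a median of 235 on the controls, and its log2 change was 1.18 (SE 0.12, adjusted p = 4.86e-05). KDELR3, a receptor that returns escaped ER residents, had 566, 464 and 456 on the 2DG arrays against 195 to 254 with a median of 219.8 on the controls, and its log2 change was 1.14 (SE 0.12, adjusted p = 5.73e-05). None of the 3 overlapped the controls. SEC63, a partner of the translocon, had 1280, 1056 and 1006 on the 2DG arrays against 459 to 547 with a median of 543 on the controls, where the lowest control was replicate 1. The log2 change of SEC63 was 1.07 (SE 0.11, adjusted p = 3.58e-05), while its other 3 probe sets gave changes from -0.38 to 1.30.

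In N-glycosylation and hexosamine synthesis 11 of 31 measured members rose (35.5%, against 11.9% of all genes) and 0 fell. The median log2 change was 0.31, and 7 rose in the 38-array block. The 4 largest rises among them included 3 subunits of oligosaccharyltransferase, which moves the glycan onto new proteins. STT3A, its catalytic subunit, had 1338, 1064 and 1001 on the 2DG arrays against 404 to 905 with a median of 497 on the controls, and its log2 change was 1.02 (SE 0.21, adjusted p = 0.00511). RPN1, which feeds substrates to it, had 1989, 1851 and 1902 on the 2DG arrays against 762 to 1172 with a median of 1001 on the controls, and its log2 change was 0.98 (SE 0.12, adjusted p = 0.000165). OSTC, a subunit at the translocon, had 2832, 2938 and 3320 on the 2DG arrays against 1421 to 1951 with a median of 1650 on the controls, and its log2 change was 0.86 (SE 0.10, adjusted p = 0.000105). All 3 were higher on every 2DG array than on every control. MOGS, the glucosidase that trims the first glucose of the glycan, had 251, 254 and 286 on the 2DG arrays against 95.9 to 205 with a median of 155 on the controls, and its log2 change was 0.81 (SE 0.22, adjusted p = 0.0184), a call lost without 2DG replicate 2 (adjusted p = 0.0558) or replicate 3 (adjusted p = 0.0675).

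The ATF4 list of stress and amino acid synthesis genes had 26 measured members. Of these 22 rose (84.6%, against 11.9% of all genes) and 0 fell, with a median log2 change of 1.09. TRIB3, a pseudokinase that restrains ATF4, had 2899, 3304 and 2895 on the 2DG arrays against 539 to 1294 with a median of 678 on the controls, and its log2 change was 2.07 (SE 0.22, adjusted p = 5.63e-05). DDIT3, the transcription factor CHOP, had 762, 789 and 123 on the 2DG arrays against 35.4 to 183 with a median of 58.4 on the controls. Replicate 3 lay within the control range while the other 2DG arrays lay far above it, and the log2 change of DDIT3 was 2.56 (SE 0.55, adjusted p = 0.00586). INHBE, an activin subunit secreted under ER stress, had 424, 366 and 261 on the 2DG arrays against 8.64 to 365 with a median of 24.2 on the controls. Control replicate 6 was at 365, so the groups overlapped, and the log2 change of INHBE was 3.15 (SE 0.75, adjusted p = 0.0101). Without control replicate 6 the log2 change of INHBE was 3.80 and 24 of the 26 members rose.

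Genes of amino acid import and tRNA charging also rose. Of 11 measured amino acid transporters 7 rose (63.6%) and 1 fell (9.1%), with a median log2 change of 0.60. Of 17 cytosolic aminoacyl-tRNA synthetases 8 rose (47.1%) and 1 fell (5.9%), with a median of 0.39. Over all genes 11.9% rose and 11.3% fell. SLC7A11, the cystine importer that pairs with SLC3A2, had 1547, 1551 and 1832 on the 2DG arrays against 362 to 797 with a median of 451 on the controls. Its 2DG arrays were far above the highest control, and the log2 change of SLC7A11 was 1.72 (SE 0.21, adjusted p = 0.000134). SLC7A5, the importer of large neutral amino acids and another partner of SLC3A2, had 889.8, 1092 and 980.4 on the 2DG arrays against 340 to 597 with a median of 425 on the controls, and its log2 change was 1.20 (SE 0.17, adjusted p = 0.000356). SLC1A4, a neutral amino acid exchanger, had 107, 125 and 150.4 on the 2DG arrays against 17.4 to 79.8 with a median of 30.5 on the controls, and its log2 change was 1.78 (SE 0.34, adjusted p = 0.00269). WARS1, which charges the tRNA for tryptophan, had 1784, 1709 and 1689 on the 2DG arrays against 460.2 to 697 with a median of 529 on the controls, and its log2 change was 1.64 (SE 0.13, adjusted p = 7.07e-06). SARS1, which charges that for serine, had 2134, 2677 and 2665 on the 2DG arrays against 925 to 1254 with a median of 1020 on the controls, and its log2 change was 1.23 (SE 0.11, adjusted p = 1.53e-05). In each of these the groups were separate. PCK2, the mitochondrial enzyme that turns oxaloacetate into phosphoenolpyruvate, had 249, 289 and 309.5 on the 2DG arrays against 64.5 to 242 with a median of 77.8 on the controls, with control replicate 6 close to the lowest 2DG array. The log2 change of PCK2 was 1.55 (SE 0.32, adjusted p = 0.00481).

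Many cell division genes fell. Of 54 measured genes of mitosis and G2/M 47 fell and 0 rose, with a median log2 change of -0.79, and of 47 genes of DNA replication and G1/S 31 fell and 0 rose, with a median of -0.54, set against 11.3% of all genes that fell. In the 38-array block 35 of the 54 and 10 of the 47 fell. HMMR, a receptor of hyaluronan that also organises the spindle, had 436, 341 and 433 on the 2DG arrays against 1048 to 1191 with a median of 1165 on the controls. The 2DG arrays were far below the lowest control, and the log2 change of HMMR was -1.49 (SE 0.10, adjusted p = 1.92e-06). KIF20A, a kinesin of the cleavage furrow, had 328, 231 and 312 on the 2DG arrays against 707 to 881 with a median of 787 on the controls, and its log2 change was -1.44 (SE 0.13, adjusted p = 1.46e-05). PLK1, the kinase that drives mitotic entry and spindle assembly, had 170.2, 204 and 201 on the 2DG arrays against 406 to 574 with a median of 508 on the controls, and its log2 change was -1.36 (SE 0.13, adjusted p = 2.79e-05). CDCA3, a trigger of mitotic entry, had 226, 195 and 283 on the 2DG arrays against 521 to 596 with a median of 557 on the controls, and its log2 change was -1.24 (SE 0.12, adjusted p = 2.79e-05). PSRC1, a spindle microtubule protein outside the list, had 106, 126 and 179 on the 2DG arrays against 345 to 409.5 with a median of 372 on the controls, and its log2 change was -1.45 (SE 0.15, adjusted p = 3.99e-05). In none of these did the groups overlap. Total RNA of a culture does not tell fewer dividing cells apart from less of these transcripts per cell.

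On the G1/S side, SKP2, the F-box protein that marks inhibitors of cyclin-dependent kinases for degradation, had 349.8, 348 and 386 on the 2DG arrays against 835 to 1241 with a median of 1039 on the controls. Its 2DG arrays were close together and below every control, and the log2 change of SKP2 was -1.53 (SE 0.13, adjusted p = 7.71e-06). E2F8, an atypical E2F that represses S-phase genes, had 44.9, 30.7 and 44.0 on the 2DG arrays against 87.5 to 152 with a median of 133 on the controls, and its log2 change was -1.52 (SE 0.20, adjusted p = 0.000248). All its 2DG arrays were below the filter signal of 45.5, so it entered the test only through the controls. POLE2, a subunit of DNA polymerase epsilon, had 95.0, 103 and 94.1 on the 2DG arrays against 202 to 263 with a median of 226 on the controls, and its log2 change was -1.17 (SE 0.12, adjusted p = 5.1e-05). These were again separate from the controls. RRM2, the regulated subunit of ribonucleotide reductase, had 2376, 1638 and 1729 on the 2DG arrays against 3368 to 5329 with a median of 4163 on the controls, and its log2 change was -1.12 (SE 0.15, adjusted p = 0.000285). CCNE2, a cyclin of the G1/S transition, had 170.3, 151 and 99.4 on the 2DG arrays against 212 to 354 with a median of 318 on the controls, and its log2 change was -1.08 (SE 0.19, adjusted p = 0.00159). MYC and CDKN1A, which drive and brake entry into S phase, were not called: MYC had 609, 665 and 436 on the 2DG arrays against 498 to 845 with a median of 564 on the controls, and CDKN1A had 288, 272 and 266 on the 2DG arrays against 282 to 448 with a median of 337 on the controls. Their groups overlapped (log2 change -0.10, SE 0.17, adjusted p = 0.712 for MYC, and log2 change -0.30, SE 0.14, adjusted p = 0.154 for CDKN1A).

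DNA repair and histone genes fell in part. Of 25 measured DNA repair genes 11 fell (44%) and 1 rose (4%), with a median log2 change of -0.33. Of 10 histone genes 7 fell (70%) and 0 rose, with a median of -0.39. Over all genes 11.3% fell and 11.9% rose. In the 38-array block 2 DNA repair genes and 4 histone genes fell. EXO1, an exonuclease of mismatch repair, had 231, 129 and 129 on the 2DG arrays against 256 to 434 with a median of 340 on the controls. Its 2DG arrays were below all controls, and the log2 change of EXO1 was -1.08 (SE 0.20, adjusted p = 0.00202). MSH6, which recognises mismatches, had 891, 869 and 917 on the 2DG arrays against 1367 to 1639 with a median of 1465 on the controls, and its log2 change was -0.72 (SE 0.09, adjusted p = 0.000129). RPA3, the smallest subunit of the protein that coats single-stranded DNA, had 952, 979 and 1114 on the 2DG arrays against 1425 to 1894 with a median of 1771 on the controls, and its log2 change was -0.74 (SE 0.11, adjusted p = 0.000524). H2AX, the histone marked at DNA breaks, had 417, 710.2 and 1230 on the 2DG arrays against 1295 to 2252 with a median of 1708 on the controls. Replicate 1 was lowest and replicate 3 just below the control range, and the log2 change of H2AX was -1.26 (SE 0.27, adjusted p = 0.00525). Only 1 histone gene fell in the fit that left out 2DG replicate 2.

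**Figure D3:**
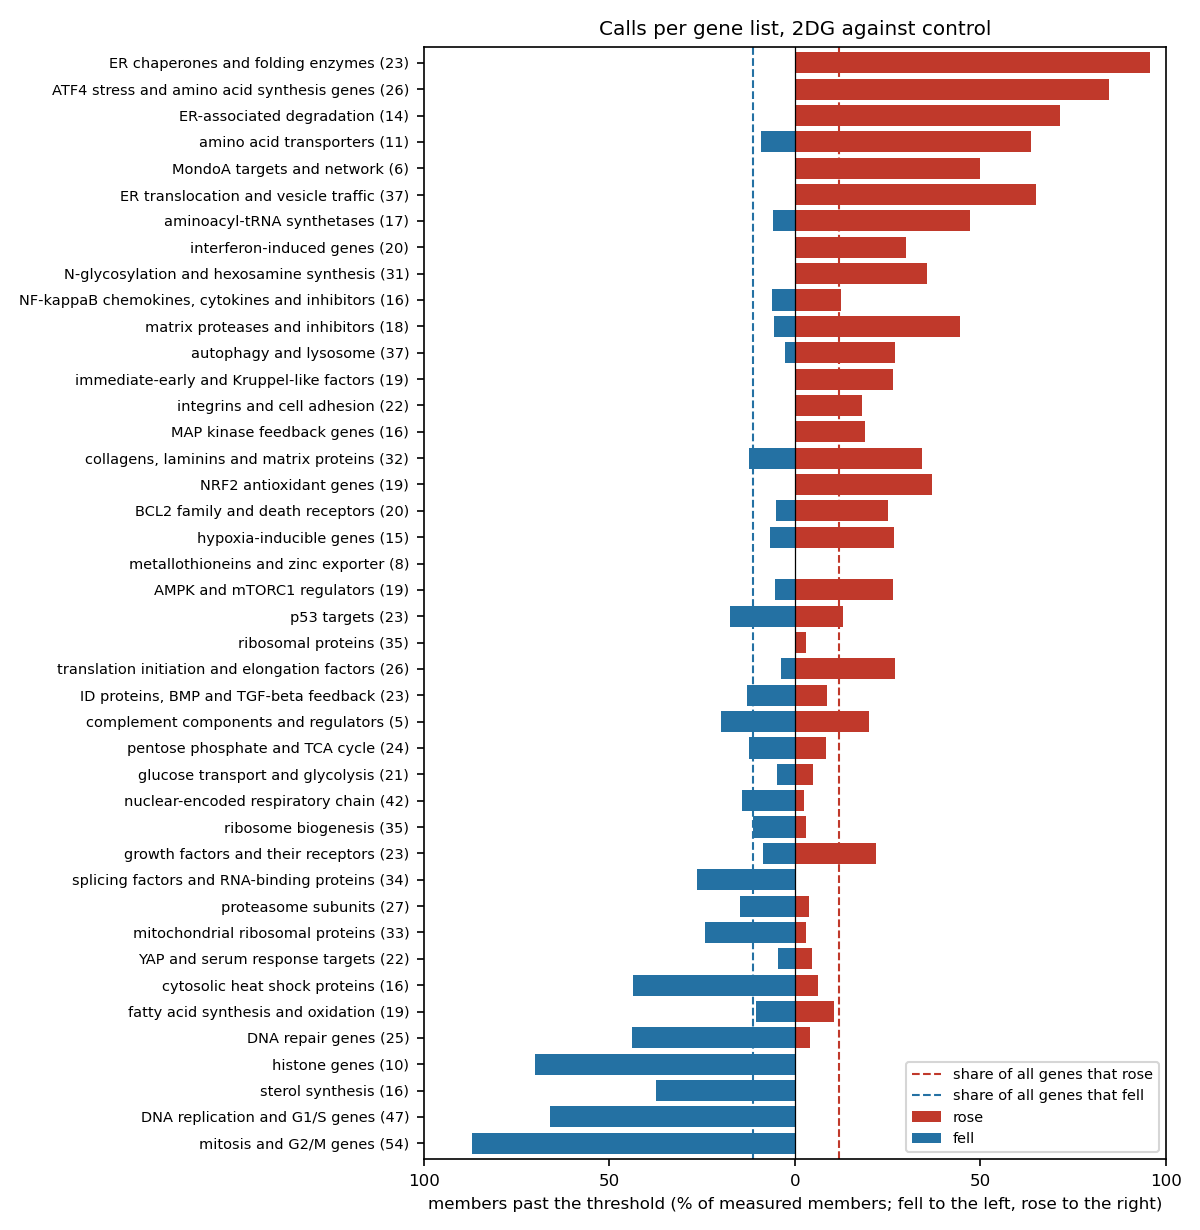
Share of the measured members of each of 42 gene lists (number in brackets) that fell, as blue bars to the left, or rose, as red bars to the right, in percent, with dashed lines at the shares of all 9548 genes (11.9% rose and 11.3% fell). Lists run by median change from ER chaperones at the top (1.33) to mitosis genes at the bottom (-0.79).

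Among the largest falls were inhibitors of differentiation. ID1, which blocks basic helix-loop-helix factors and is a direct target of bone morphogenetic protein signals, had 549, 463 and 972 on the 2DG arrays against 1436 to 4642 with a median of 2131 on the controls. Replicate 3 of 2DG was the highest treated array and still below every control, and the log2 change of ID1 was -1.89 (SE 0.32, adjusted p = 0.00123). ID3, its close relative, had 249, 197 and 317 on the 2DG arrays against 384 to 1895 with a median of 888 on the controls, and its log2 change was -1.80 (SE 0.38, adjusted p = 0.00511). SMAD5, a signal carrier of bone morphogenetic proteins, had 345, 231 and 301 on the 2DG arrays against 399 to 537 with a median of 493 on the controls, and its log2 change was -0.71 (SE 0.14, adjusted p = 0.00395). The call of SMAD5 was lost when a gene was taken as the mean over its probe sets (adjusted p = 0.0974). ID3 and SMAD5 likewise did not overlap the controls. TGIF1, a repressor of TGF-beta signalling, rose with 278, 359 and 296 on the 2DG arrays against 58.0 to 122 with a median of 98.1 on the controls, the lowest control being replicate 3, and the log2 change of TGIF1 was 1.67 (SE 0.19, adjusted p = 9.82e-05). Over the 23 measured ID proteins and feedback genes of BMP and TGF-beta, there were 2 that rose (8.7%) and 3 that fell (13%). These are close to the shares of all genes (11.9% and 11.3%). With the described pairs as blocks 5 fell, and 2 fell in the 38-array block.

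Several other large falls belong to no list. ND6, the complex I subunit encoded on the mitochondrial genome, had 378, 192 and 129.6 on the 2DG arrays against 517 to 1467 with a median of 806 on the controls. The 2DG arrays differed among themselves, yet all lay below the controls, and the log2 change of ND6 was -1.96 (SE 0.33, adjusted p = 0.00126). MAP2K6, the kinase that activates p38, had 35.4, 45.1 and 18.9 on the 2DG arrays against 90.0 to 163 with a median of 123 on the controls, and its log2 change was -1.79 (SE 0.24, adjusted p = 0.000255). DLEU2, a noncoding host transcript of microRNAs, had 72.7, 40.9 and 43.5 on the 2DG arrays against 140.1 to 219 with a median of 179 on the controls, and its log2 change was -1.72 (SE 0.19, adjusted p = 6.26e-05). PTPRG-AS1, a transcript antisense to PTPRG, had 17.4, 8.30 and 16.3 on the 2DG arrays against 59.1 to 75.7 with a median of 66.9 on the controls, and its log2 change was -1.92 (SE 0.22, adjusted p = 8.55e-05). MYL10, a myosin light chain, had 17.5, 10.2 and 8.58 on the 2DG arrays against 19.8 to 75.2 with a median of 55.3 on the controls, and its log2 change was -1.58 (SE 0.38, adjusted p = 0.0103). CEMIP, which helps to degrade hyaluronan, had 18.7, 44.3 and 21.9 on the 2DG arrays against 48.2 to 192 with a median of 87.5 on the controls, and its log2 change was -1.56 (SE 0.37, adjusted p = 0.00983). None of these overlapped the controls, but the 12 largest falls were taken only from genes without overlap, so their separation follows from the rule. The same holds for ID1, ID3, SKP2, E2F8, HMMR and PSRC1 above. In all, 46 of the 1083 genes that fell had every 2DG array below the filter signal, among them 5 of the 12 largest falls.

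Sterol synthesis genes fell in part. Of 16 measured sterol genes 6 fell (37.5%, against 11.3% of all genes) and 0 rose, with a median log2 change of -0.41. HMGCS1, which makes the precursor of mevalonate, had 93.8, 81.4 and 140.4 on the 2DG arrays against 136 to 336 with a median of 256 on the controls. Replicate 3 of 2DG lay just above the lowest control, and the log2 change of HMGCS1 was -1.15 (SE 0.24, adjusted p = 0.00489). EBP, a sterol isomerase, had 313, 357 and 445 on the 2DG arrays against 637 to 1002 with a median of 717 on the controls, and its log2 change was -1.003 (SE 0.15, adjusted p = 0.000516). INSIG1, the ER anchor that holds back SREBP, had 301, 323 and 437 on the 2DG arrays against 558 to 851 with a median of 684 on the controls, and its log2 change was -0.93 (SE 0.16, adjusted p = 0.00112). IDI1, the isomerase of isopentenyl diphosphate, had 894, 925 and 1285 on the 2DG arrays against 1449 to 2497 with a median of 1969 on the controls, and its log2 change was -0.90 (SE 0.16, adjusted p = 0.00196). The last 3 did not overlap the controls. Of 19 fatty acid genes 2 rose and 2 fell (10.5% each), close to the shares of all genes (11.9% and 11.3%). With the described pairs as blocks 8 fell, and 1 fell in the 38-array block. ACLY, which makes cytosolic acetyl-CoA, had 1237, 1266 and 1234 on the 2DG arrays against 1495 to 1712 with a median of 1680 on the controls, and its log2 change was -0.39 (SE 0.08, adjusted p = 0.00426).

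Of 16 measured cytosolic heat shock genes 7 fell (43.75%) and 1 rose (6.25%), against 11.3% and 11.9% of all genes. The median log2 change was -0.25. HSPE1, the mitochondrial co-chaperonin kept on that list, had 2870, 2602 and 3164 on the 2DG arrays against 4451 to 4765 with a median of 4594 on the controls. Its groups were well apart, and the log2 change of HSPE1 was -0.68 (SE 0.07, adjusted p = 4.69e-05). STIP1, which couples HSP70 to HSP90, had 1283, 1019 and 986 on the 2DG arrays against 1399 to 2183 with a median of 1802 on the controls, and its log2 change was -0.74 (SE 0.14, adjusted p = 0.00228). HSPH1, a nucleotide exchange factor of HSP70, had 2024, 1765 and 1830 on the 2DG arrays against 2120 to 3135 with a median of 2840 on the controls, and its log2 change was -0.55 (SE 0.11, adjusted p = 0.00398). The riser was DNAJB6, a co-chaperone that holds back aggregation, with 579, 616 and 636 on the 2DG arrays against 317 to 465 with a median of 403 on the controls, and its log2 change was 0.60 (SE 0.12, adjusted p = 0.00398). Of 27 proteasome subunits 4 fell (14.8%, against 11.3% of all genes) and 1 rose (3.7%, against 11.9%), and the ATPase subunit PSMC2 had 2674, 2457 and 2330 on the 2DG arrays against 3050 to 3857 with a median of 3282 on the controls (log2 change -0.43, SE 0.09, adjusted p = 0.00398). The count of proteasome genes that fell was 8 on the deposited scaling and 2 without 2DG replicate 2 or without control replicate 1. In the 38-array block 3 heat shock genes and 2 proteasome subunits fell.

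Genes of RNA processing and of mitochondrial translation fell in part. Of 34 measured splicing factors and RNA-binding proteins 9 fell (26.5%, against 11.3% of all genes) and 0 rose. The median log2 change was -0.17. With the described pairs as blocks 16 fell. SRSF7, a serine-arginine splicing factor, had 1719, 1191 and 1175 on the 2DG arrays against 2701 to 3250 with a median of 2877 on the controls. All 2DG arrays were below all controls, and the log2 change of SRSF7 was -1.12 (SE 0.12, adjusted p = 4.86e-05). SRSF6, a relative, had 594, 419 and 462 on the 2DG arrays against 589 to 1082 with a median of 1012 on the controls, where the lowest control, replicate 6, was just below 2DG replicate 1, and the log2 change of SRSF6 was -0.92 (SE 0.18, adjusted p = 0.00334). CIRBP, an RNA-binding protein induced by cold, had 498, 808 and 949 on the 2DG arrays against 1019 to 1730 with a median of 1174 on the controls, and its log2 change was -0.76 (SE 0.20, adjusted p = 0.0156), a call lost without 2DG replicate 1 (adjusted p = 0.0593). It was also lost when a gene was taken as the mean over its probe sets (adjusted p = 0.116). Of 33 mitochondrial ribosomal proteins 8 fell (24.2%) and 1 rose (3.0%), against 11.3% and 11.9% of all genes. The number that fell was 5 without 2DG replicate 2, 4 without replicate 3 and 3 in the 38-array block. MRPL49 had the largest fall among them, with 574, 687 and 606 on the 2DG arrays against 960 to 1131 with a median of 1055 on the controls (log2 change -0.76, SE 0.10, adjusted p = 0.000185).

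Of 35 measured cytosolic ribosomal proteins 1 rose (2.9%, against 11.9% of all genes) and 0 fell, with log2 changes from -0.10 to 0.19. On the deposited scaling 0 rose and 1 fell. The riser was RPS25, with 7071, 6554 and 6292 on the 2DG arrays against 5579 to 5994 with a median of 5833 on the controls, and its call (log2 change 0.19, SE 0.06, adjusted p = 0.0295) was lost with the described pairs as blocks (adjusted p = 0.0956), without 2DG replicate 1 (adjusted p = 0.116) or 2 (adjusted p = 0.0834), and without control replicate 1 (adjusted p = 0.0594). Of 35 ribosome biogenesis genes 1 rose (2.9%) and 4 fell (11.4%), against 11.9% and 11.3% of all genes. The number that fell was 7 in those blocks or without 2DG replicate 1, 0 in the 38-array block and 2 without 2DG replicate 3 or control replicate 1. Of 26 translation factors 7 rose (26.9%) and 1 fell (3.8%), against 11.9% and 11.3% of all genes. With the described pairs as blocks 3 fell. The number that rose was 2 without 2DG replicate 2, 3 without replicate 3 and 4 without control replicate 1 or in the 38-array block. The one that fell, EIF4E, the protein that binds the cap of mRNA, had 831, 582 and 710 on the 2DG arrays against 1031 to 1296 with a median of 1165 on the controls. All its 2DG arrays were below the controls, and the log2 change of EIF4E was -0.72 (SE 0.12, adjusted p = 0.000883). EIF2A, an initiation factor distinct from the alpha subunit of eIF2, had 3963, 3812 and 3879 on the 2DG arrays against 2333 to 3327 with a median of 2644 on the controls, and its log2 change was 0.55 (SE 0.10, adjusted p = 0.00241).

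Of 21 measured genes of glucose transport and glycolysis 1 rose and 1 fell (4.8% each, against 11.9% and 11.3% of all genes). The median log2 change was -0.02, with a range from -0.30 to 0.88. With the described pairs as blocks 4 rose and 3 fell, and in the 38-array block 1 rose and 0 fell. SLC2A3, the glucose transporter of high affinity, was the one that rose, with 289, 348 and 309 on the 2DG arrays against 155 to 184 with a median of 165 on the controls. All its 2DG arrays lay above all controls, and the log2 change of SLC2A3 was 0.88 (SE 0.12, adjusted p = 0.000226). PGAM1, phosphoglycerate mutase, was the one that fell, with 4403, 4371 and 4114 on the 2DG arrays against 4466 to 5577 with a median of 5150 on the controls (log2 change -0.24, SE 0.08, adjusted p = 0.0389). Its call was lost without any single 2DG array or control replicate 2, 3, 4 or 6, at adjusted p-values from 0.0570 to 0.138. Of 24 genes of the pentose phosphate pathway and TCA cycle 2 rose (8.3%) and 3 fell (12.5%), close to the shares of all genes. In the described blocks 5 fell, in the 38-array block 0, and 1 without 2DG replicate 2, 2DG replicate 3 or control replicate 2. ME1, the cytosolic malic enzyme, had 1240, 976 and 983 on the 2DG arrays against 631 to 814 with a median of 677 on the controls, and its log2 change was 0.58 (SE 0.12, adjusted p = 0.00467). SUCLA2, a subunit of succinyl-CoA synthetase, had 642, 613 and 621 on the 2DG arrays against 769 to 979 with a median of 844 on the controls, and its log2 change was -0.46 (SE 0.10, adjusted p = 0.00566). Both were separate from the controls.

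Of 42 measured nuclear-encoded respiratory chain subunits 6 fell (14.3%, against 11.3% of all genes) and 1 rose, with a median log2 change of -0.04. With the described pairs as blocks 9 fell and 0 rose, in the 38-array block 4 fell and 0 rose, and 3 fell without 2DG replicate 2. ATP5MC1, which encodes the ring subunit of ATP synthase, had 778, 972 and 973 on the 2DG arrays against 1251 to 1933 with a median of 1487 on the controls. No 2DG array reached the controls, and the log2 change of ATP5MC1 was -0.72 (SE 0.13, adjusted p = 0.00216). NDUFV2, a core subunit of complex I, had 912, 826 and 920.2 on the 2DG arrays against 1207 to 1524 with a median of 1359 on the controls, and its log2 change was -0.62 (SE 0.09, adjusted p = 0.000577). Of 15 hypoxia-inducible genes 4 rose (26.7%) and 1 fell (6.7%), against 11.9% and 11.3% of all genes. The number that rose was 1 in the 38-array block, without 2DG replicate 2 or without replicate 3. It was 2 when control replicate 1, 2, 4, 5 or 6 was left out. NDRG1, a stress protein of that list, had 2206, 4912 and 3651 on the 2DG arrays against 638 to 2782 with a median of 1232 on the controls. Replicate 1 of 2DG lay within the control range, and the log2 change of NDRG1 was 1.35 (SE 0.36, adjusted p = 0.0188), a call lost without 2DG replicate 2 (adjusted p = 0.106) or replicate 3 (adjusted p = 0.0603). STC1, stanniocalcin, went the other way with 2552, 3004 and 2768 on the 2DG arrays against 3617 to 4710 with a median of 3801 on the controls, and its log2 change was -0.50 (SE 0.09, adjusted p = 0.00186). The call of STC1 was lost when a gene was taken as the mean over its probe sets (adjusted p = 0.0955).

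Autophagy genes rose in part. Of 37 measured autophagy and lysosome genes 10 rose (27.0%) and 1 fell (2.7%), against 11.9% and 11.3% of all genes. The median log2 change was 0.27. The number that rose was 5 without 2DG replicate 2 and 6 in the 38-array block. WIPI1, which binds phosphoinositide at the forming autophagosome, had 414, 402 and 482 on the 2DG arrays against 106 to 177 with a median of 127 on the controls. Its 2DG arrays were well above the highest control, and the log2 change of WIPI1 was 1.67 (SE 0.17, adjusted p = 3.48e-05). MAP1LC3B, the lipid-coupled mark of autophagosomes, had 1736, 1115 and 979 on the 2DG arrays against 362 to 532 with a median of 411 on the controls, and its log2 change was 1.53 (SE 0.17, adjusted p = 7.68e-05). SQSTM1 and OPTN, cargo receptors, had 2196, 2033 and 2231 on the 2DG arrays against 746 to 1415 with a median of 1018 on the controls for SQSTM1 (log2 change 1.02, SE 0.17, adjusted p = 0.000932), while OPTN had 471, 632 and 629 on the 2DG arrays against 231 to 298 with a median of 256 on the controls (log2 change 1.14, SE 0.13, adjusted p = 0.000102). All 4 were free of overlap. The other 3 probe sets of SQSTM1 gave changes from -0.05 to 1.15. Of 19 AMPK and mTORC1 regulators 5 rose (26.3%) and 1 fell (5.3%), against 11.9% and 11.3% of all genes. With the described pairs as blocks 4 fell. The number that rose was 2 in the 38-array block or without 2DG replicate 2. It was 3 without 2DG replicate 1, 2DG replicate 3 or control replicate 4. RRAGC, a Rag GTPase that brings mTORC1 to the lysosome, had 1088, 865 and 769 on the 2DG arrays against 423 to 599.6 with a median of 453 on the controls, and its log2 change was 0.91 (SE 0.14, adjusted p = 0.000619).

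Some matrix genes rose. Of 18 measured matrix proteases and inhibitors 8 rose (44.4%) and 1 fell, and of 32 collagens, laminins and matrix proteins 11 rose (34.4%) and 4 fell (12.5%), against 11.9% of all genes that rose and 11.3% that fell. Without 2DG replicate 2 the numbers that rose were 4 and 6, and without replicate 3 the number of proteases that rose was 5. MMP3, stromelysin, had 465, 573 and 521 on the 2DG arrays against 48.4 to 214 with a median of 90.0 on the controls. All 2DG arrays lay above all controls, and the log2 change of MMP3 was 2.45 (SE 0.34, adjusted p = 0.000353). MMP1, the interstitial collagenase, had 3929, 2020 and 1116 on the 2DG arrays against 102 to 1511 with a median of 384 on the controls. Replicate 3 of 2DG lay within the control range, the log2 change of MMP1 was 2.25 (SE 0.65, adjusted p = 0.0254), and the call was lost without 2DG replicate 1 (adjusted p = 0.0907) or replicate 2 (adjusted p = 0.0789). SERPINE2, an inhibitor of thrombin and plasminogen activators, had 449, 444 and 438 on the 2DG arrays against 117 to 214 with a median of 183 on the controls, and its log2 change was 1.34 (SE 0.17, adjusted p = 0.000213). LOX, which cross-links collagen and is also one of the mesenchymal markers above, had 449.9, 853 and 660.3 on the 2DG arrays against 129.9 to 349.8 with a median of 183 on the controls, and its log2 change was 1.67 (SE 0.27, adjusted p = 0.000968). COL6A3, a chain of collagen VI, had 2194, 2221 and 2931 on the 2DG arrays against 663 to 2115 with a median of 1115 on the controls, and its log2 change was 1.16 (SE 0.27, adjusted p = 0.00979). The last 3 were separate, COL6A3 by a small gap. Of 22 genes of integrins and cell adhesion 4 rose (18.2%, against 11.9% of all genes) and 0 fell. The number that rose was 9 with the described pairs as blocks, 1 in the 38-array block and 2 without 2DG replicate 2 or replicate 3.

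Of 19 measured immediate-early and Krüppel-like factors 5 rose (26.3%, against 11.9% of all genes) and 0 fell, and 8 rose without 2DG replicate 1. EGR1, an immediate-early zinc finger factor, had 356, 245 and 188 on the 2DG arrays against 17.9 to 76.6 with a median of 35.1 on the controls. Its groups were apart, and the log2 change of EGR1 was 2.62 (SE 0.32, adjusted p = 0.000147). MXD1, which opposes MYC at shared sites, had 205, 129.9 and 123 on the 2DG arrays against 45.6 to 82.0 with a median of 53.8 on the controls, and its log2 change was 1.31 (SE 0.22, adjusted p = 0.00103). KLF2, a Krüppel-like factor best known from endothelium, had 635, 760.4 and 680 on the 2DG arrays against 300.4 to 487 with a median of 415 on the controls, and its log2 change was 0.74 (SE 0.15, adjusted p = 0.00359). Of 16 MAP kinase feedback genes 3 rose (18.8%, against 11.9% of all genes) and 0 fell. The number that rose was 5 in the described blocks and 1 in the 38-array block or without 2DG replicate 2. Of 23 growth factors and receptors 5 rose (21.7%) and 2 fell (8.7%, against 11.3% of all genes). In the described blocks 5 fell and in the 38-array block 0, while 3 rose without 2DG replicate 2 and 0 fell without replicate 1. Of 22 YAP and serum response targets 1 rose and 1 fell (4.5% each, below both shares of all genes), or 5 that fell in the described blocks or without 2DG replicate 1. IGF2R, the receptor that also sorts mannose-tagged enzymes to lysosomes, had 433, 457 and 429 on the 2DG arrays against 167 to 279 with a median of 243 on the controls, the lowest control being replicate 1. The log2 change of IGF2R was 0.88 (SE 0.15, adjusted p = 0.0011). IRS2, the insulin receptor substrate, had 679.6, 985 and 789.8 on the 2DG arrays against 409.9 to 632 with a median of 451 on the controls, the highest control being replicate 6, and the log2 change of IRS2 was 0.78 (SE 0.15, adjusted p = 0.00282).

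Of 20 measured interferon-induced genes, out of 43 on the list, 6 rose (30%, against 11.9% of all genes) and 0 fell. The median log2 change was 0.33. In the 38-array block 0 rose, with an adjusted p of 0.0689 for IRF9 and 0.0846 for ISG20. IRF9, the DNA-binding part of the interferon-activated complex, had 123, 148 and 171 on the 2DG arrays against 61.2 to 95.0 with a median of 69.8 on the controls. Its groups did not overlap, and the log2 change of IRF9 was 0.97 (SE 0.17, adjusted p = 0.00189). ISG20, an RNA exonuclease, had 204, 190.3 and 142 on the 2DG arrays against 77.4 to 142 with a median of 90.4 on the controls, and its log2 change was 0.87 (SE 0.19, adjusted p = 0.00703), its groups being separate by a narrow gap. IFIT1, an RNA-binding antiviral protein, did not pass the filter and was not tested, with 2.92, 1.47 and 3.24 on the 2DG arrays against 25.1 to 39.9 with a median of 26.3 on the controls, all of the 2DG arrays being lower. Of 16 genes of the NF-kappaB group 2 rose (12.5%) and 1 fell (6.25%), against 11.9% and 11.3% of all genes. With the described pairs as blocks 2 fell, and from 1 to 3 rose when single arrays were left out. RELB, a subunit of NF-kappaB, had 90.6, 108 and 115 on the 2DG arrays against 41.7 to 67.6 with a median of 47.6 on the controls, and its log2 change was 0.99 (SE 0.18, adjusted p = 0.00215). IL11, a cytokine of the interleukin-6 family, had 345, 303 and 239 on the 2DG arrays against 555 to 877 with a median of 625 on the controls, and its log2 change was -1.13 (SE 0.16, adjusted p = 0.000379). Both were free of overlap. CD55, which protects cells from complement, had 430.3, 492 and 461 on the 2DG arrays against 137 to 205 with a median of 173 on the controls, and its log2 change was 1.38 (SE 0.13, adjusted p = 2.41e-05), while CD59, another such shield, had 1536, 2166 and 2016 on the 2DG arrays against 2096 to 2740 with a median of 2501 on the controls with overlap (log2 change -0.35, SE 0.12, adjusted p = 0.0452). The call of CD59 was lost without 2DG replicate 1 or 3 or control replicate 1, 2, 4 or 6, at adjusted p-values from 0.0661 to 0.192.

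Of 20 measured genes of the BCL2 family and death receptors 5 rose (25%) and 1 fell (5%), against 11.9% and 11.3% of all genes. With the described pairs as blocks 3 fell. The number that rose was 2 without 2DG replicate 2 and 1 in the 38-array block. CASP4, an inflammatory caspase linked to ER stress, had 608, 496 and 514 on the 2DG arrays against 254 to 333 with a median of 307 on the controls, and its log2 change was 0.84 (SE 0.12, adjusted p = 0.000379). BAD, a protein that promotes cell death, had 130.1, 162 and 137 on the 2DG arrays against 194 to 267 with a median of 219 on the controls, and its log2 change was -0.63 (SE 0.14, adjusted p = 0.00613). Neither overlapped the controls. Of 23 p53 targets 3 rose (13%) and 4 fell (17.4%), close to the shares of all genes (11.9% and 11.3%), or 5 that rose in the described blocks and 1 in the 38-array block or without 2DG replicate 2 or 3 or control replicate 3 or 5 (1 fell in the 38-array block), and BAX, a pore former of mitochondria, had 290.4, 319 and 262 on the 2DG arrays against 393 to 610.4 with a median of 459.6 on the controls (log2 change -0.68, SE 0.14, adjusted p = 0.00545). Of 19 NRF2 antioxidant genes 7 rose (36.8%, against 11.9% of all genes) and 0 fell. The number that rose was 3 without 2DG replicate 1 and 4 without replicate 3 or in the 38-array block. AKR1C1, an aldo-keto reductase, had 489.9, 220 and 311 on the 2DG arrays against 51.8 to 247 with a median of 85.6 on the controls (log2 change 1.55, SE 0.42, adjusted p = 0.0197). Replicate 2 of 2DG lay below the highest control, and the call was lost without 2DG replicate 1 (adjusted p = 0.0721) or replicate 3 (adjusted p = 0.0514). Near-identical relatives of that enzyme may share its probes. Of 8 measured genes of the metallothioneins and their zinc exporter SLC30A1, 0 were called either way, and 2 rose with the described pairs as blocks (adjusted p = 0.00146 for MT1H and adjusted p = 0.0140 for SLC30A1).

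The 3 treated arrays differed among themselves by a median range of 0.40 on the log2 scale, by 1 or more in 655 genes and by 2 or more in 39. List medians relative to the mean of the controls showed where. ER chaperones gave 1.51, 1.32 and 1.22 on 2DG replicates 1, 2 and 3, against -0.06 to 0.08 on the controls, and mitosis genes gave -0.69, -0.96 and -0.65 against -0.12 to 0.10. Sterol synthesis gave -0.63, -0.33 and -0.12 against -0.26 to 0.27, so that replicate 3 lay within the control range. Collagens, laminins and matrix proteins gave 0.06, 0.35 and 0.23 against -0.31 to 0.19, so that replicate 1 lay within the control range. Matrix proteases gave 0.24, 0.50 and 0.41 against -0.28 to 0.17, and glycolysis -0.12, 0.21 and 0.08 against -0.12 to 0.14, so that for glycolysis replicate 2 lay above the controls, replicate 1 at their lower edge and replicate 3 among them. Control replicate 6 was the highest control for the ATF4 list at 0.60, where the lowest, replicate 1, was at -0.18, and the 2DG arrays were at 1.20, 1.27 and 0.92.

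**Figure D4:**
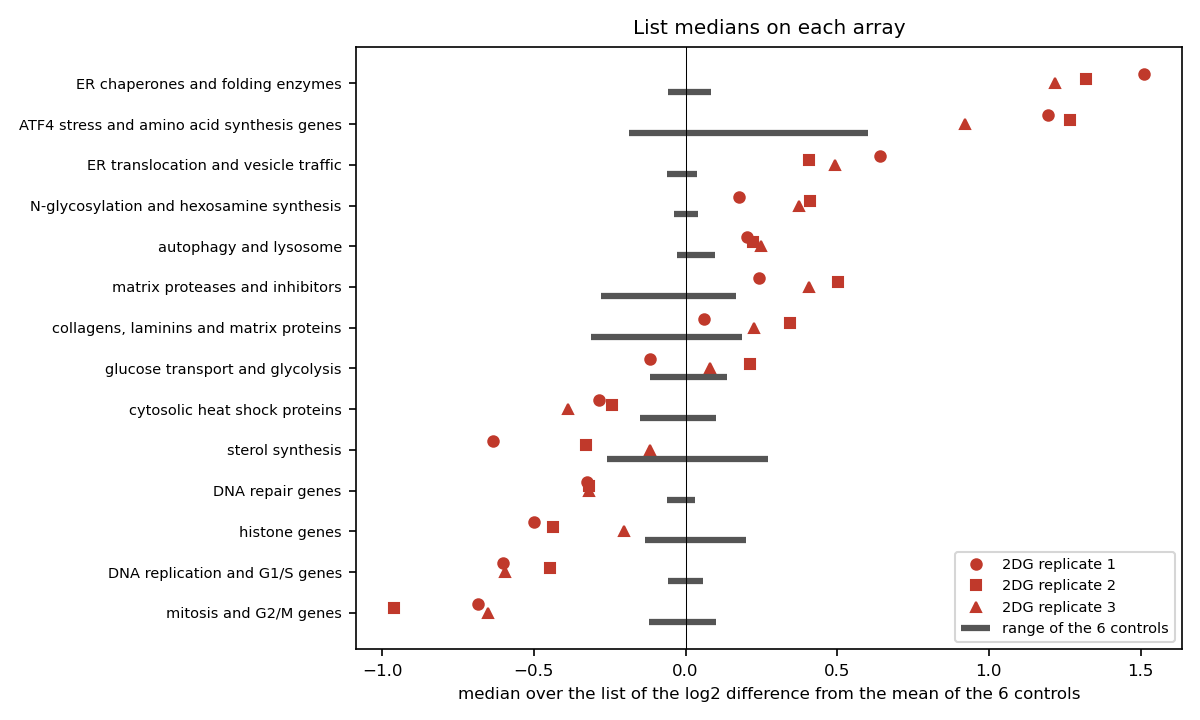
Median over each of 14 gene lists of the log2 difference from the mean of the 6 controls (x axis), as 1 red marker for each 2DG replicate and a grey bar for the range of the 6 controls. ER chaperones (1.22 to 1.51) and mitosis genes (-0.96 to -0.65) lie far outside their control ranges, while glycolysis has 1 array above its control range. Sterol synthesis and the list of collagens, laminins and matrix proteins each have 1 array within their control range.

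Glucose starvation (GS) for 18 h, measured on 2 arrays of the same line, removes glucose in place of adding its analogue, and was compared with 2DG directly. The descriptions name control replicates 1 and 6 for GS replicates 1 and 2, and neither is named for a 2DG array. In the fit without blocks, treatment and described control therefore cannot be told apart. In a direct comparison of 9634 genes, 289 were higher under 2DG than under GS (3%) and 143 lower (1.48%), or 4.48% either way. Without 2DG replicate 2 the counts were 92 and 44, without replicate 3 they were 103 and 43, and with the described pairs as blocks 114 and 48. In the 38-array block only 1 gene was higher and 2 were lower. With 1 GS array left out, the other is assumed to vary like the other groups. Without GS replicate 1 the count higher was 182, and the count lower was 89 without GS replicate 2 and 93 without control replicate 4. TXNIP was furthest above GS, with 624, 654 and 579.7 under 2DG against 47.6 and 39.9 under GS, where the controls had 51.2 to 76.6. The difference on the log2 scale was 3.66 (SE 0.20, adjusted p = 3.60e-07), and it was called under all 21 alternatives. MAN1A1, a Golgi mannosidase, had 182, 138.9 and 139.8 under 2DG against 45.1 and 26.5 under GS (difference 1.97, SE 0.27, adjusted p = 0.00242), and SLCO4A1, an organic anion transporter, had 612, 889 and 934 under 2DG against 226 and 218 under GS (difference 1.82, SE 0.21, adjusted p = 0.00128). The controls had 72.9 to 137.8 for MAN1A1 and 416.7 to 682.7 for SLCO4A1, so for both the GS arrays lay below every control. HIP1, NHSL3 and TONSL were the other genes with the largest differences in that direction. HIP1 had 35.9 to 51.5 under 2DG, 1.62 and 7.03 under GS, and 31.5 to 48.3 on the controls. TONSL had 36.95 to 58.9 under 2DG, 3.99 and 12.7 under GS, and 23.7 to 59.2 on the controls. In the 38-array block all these calls but that of TXNIP were lost (adjusted p = 0.435 for MAN1A1 and adjusted p = 0.228 for SLCO4A1). For NHSL3 the GS arrays were at 6.16 and 52.1, so its difference of 1.94 rested largely on GS replicate 1. Without that array the difference for NHSL3 was 0.79.

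In the other direction HMOX1, the heme oxygenase of the antioxidant response, had 142, 81.5 and 97.4 under 2DG against 5696 and 724 under GS (difference -4.21, SE 0.59, adjusted p = 0.00282). ZFAND2A, an arsenite- and heat-inducible proteasome factor, had 237, 291 and 232 under 2DG against 3563 and 1328 under GS (difference -3.08, SE 0.29, adjusted p = 0.000148). DNAJB1, the cytosolic heat shock co-chaperone, had 504, 562 and 576 under 2DG against 5306 and 1241 under GS (difference -2.22, SE 0.38, adjusted p = 0.00731). For these and for EGR1, NFKBIZ and the noncoding DPH5-DT, every 2DG array was below both GS arrays, and the GS arrays themselves lay far apart for HMOX1, EGR1 and DNAJB1, with GS replicate 1 the higher. EGR1 had 188 to 356 under 2DG against 6128 and 520 under GS. Its difference of -2.79 rested largely on GS replicate 1, and was -1.015 without that array. MYC was lower under 2DG than under GS by a log2 difference of -1.08 (SE 0.22, adjusted p = 0.0167), a call lost with the described pairs as blocks, as was that of EGR1 (adjusted p = 0.145 for MYC and adjusted p = 0.0748 for EGR1). In the 38-array block the calls of HMOX1, ZFAND2A and EGR1 were lost (adjusted p = 0.435 for each). So were those of DNAJB1 (adjusted p = 0.497), NFKBIZ (adjusted p = 0.0889) and MYC (adjusted p = 0.638). HSPA5, HSP90B1 and ASNS differed by 0.02, 0.13 and -0.03, with standard errors of 0.10, 0.11 and 0.31, and were not called. When a gene was taken as the mean over its probe sets, HSPA5 was called lower under 2DG than under GS, at -0.82 (adjusted p = 0.0369). Among cell division genes E2F8 had 44.9, 30.7 and 44.0 under 2DG against 13.1 and 13.8 under GS (difference 1.23, SE 0.27, adjusted p = 0.0222), and HMMR had 436, 341 and 433 under 2DG against 640.1 and 547 under GS (difference -0.56, SE 0.14, adjusted p = 0.0383). The difference was called in 14 of 21 alternatives for E2F8 and in 8 of 21 for HMMR. Every 2DG and GS array of E2F8 lay below the filter signal of 45.5, so E2F8 entered this comparison only through the controls.

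**Figure D5:**
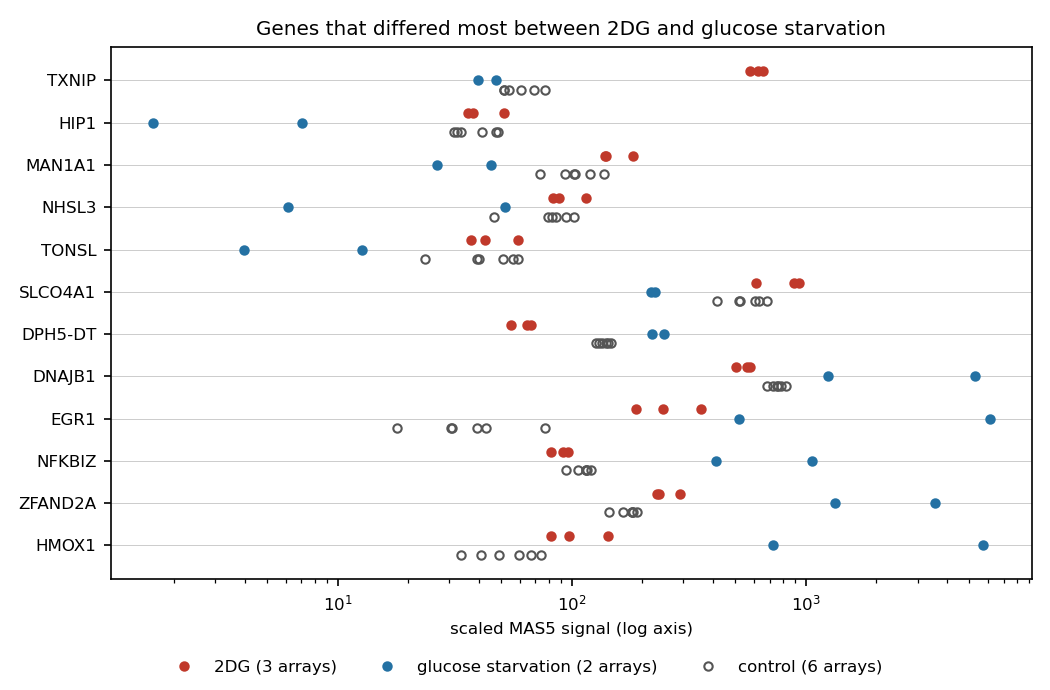
Scaled MAS5 signal on a log axis of the 12 genes with the largest differences between 2DG and glucose starvation, with red points for 3 2DG arrays, blue points for 2 glucose starvation arrays and open points for 6 controls. TXNIP lies above the controls on the 2DG arrays and not on the glucose starvation arrays, and HMOX1, ZFAND2A, NFKBIZ and DNAJB1 lie above the 2DG arrays and the controls under glucose starvation.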

How the data were processed

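RNA of HT-1080 cells was measured on Affymetrix U133 Plus 2.0 arrays, of which 3 with 2DG, 2 with glucose starvation and 6 controls were compared here. The authors deposited the intensity of each of 54675 probe sets on a linear scale, computed with MAS5 per the submitters' processing notes. Detection calls were not used here, and MAS5 signals near the floor are imprecise. From the deposited intensity, 232 probe sets with missing values were left out and the arrays were rescaled to share 1 trimmed mean (2% from each tail, 113.7). The log2 of the signal plus 5% of that mean (5.69) was taken, so the fold of dim genes is understated. A probe set was kept with 40% of that mean (45.5) or more on at least 3 of the arrays compared. Of the probe sets, 41097 had 1 gene symbol in GEO's platform annotation, 1801 had several and 11777 none, and the last 2 kinds were not analysed here. The probe set with the highest mean stood for its gene. Groups were compared with limma 3.58.1 in R 4.3.3 (lmFit and eBayes with an intensity trend, no block), with Benjamini-Hochberg adjustment over all genes and calls at an adjusted p under 0.05. The method was tested on simulated data.

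The descriptions name a control for each 2DG array. The deviations of these pairs from their group means correlated at 0.59, 0.441 and 0.453, each the highest value of that 2DG array with any control, so the descriptions pair the arrays and a fit with the pairs as blocks was run too. Named genes were 10 anchors, the 12 largest rises and falls without overlap, up to 4 called members with the largest change per list (up to 2 where none was called), and the 6 largest differences each way from glucose starvation. The members, lists and rules were chosen with earlier results of these data known. Alternatives changed the offset, filter, scaling, choice of probe set, trend and block, and left out each array in turn.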

Additional observations from a re-analysis of the deposited data

Results flagged for a closer look

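Of 172 named genes, 13 had a control array whose gap to the nearest other control exceeded Dixon's critical value for 6 samples, where chance flags about 1 in 20 groups. Control replicate 6 was the high one for SLC3A2 (396, others 238 to 288), INHBE (365, others 8.64 to 33.7), ASNS (1240, others 432 to 637), PCK2 (242, others 64.5 to 94.9), IRS2 (632, others 410 to 466), IER3 (2750, others 2040 to 2280) and STC1 (4710, others 3620 to 3900). It was the low one for SRSF6 (589, others 906 to 1080). Control replicate 1 was low for SEC63 (459, others 528 to 547), IGF2R (167, others 243 to 279) and VEGFA (536, others 775 to 875), and high for UTP18 (1620, others 1480 to 1530). Control replicate 3 was low for TGIF1 (58, others 97.6 to 122). The cause was not tested.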

How the results depend on the processing

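Of the 1134 genes that rose and 1083 that fell, leaving out single arrays gave 647 to 1089 that rose and 637 to 992 that fell. One fit over all 38 arrays with the described control set as a block gave 576 and 449, and that set as a random block gave 1898 and 1848. With the described pairs as blocks (replicate block) 1582 rose and 1560 fell, within 1.5 times. That block ended the calls of PSMC4 (adjusted p = 0.0556) and GADD45B (adjusted p = 0.0866) besides those given above, and changed no other call among the named genes than these and MT1H and SLC30A1. On the deposited scaling 904 rose and 1254 fell. For 2DG against glucose starvation (289 higher, 143 lower), leaving out single arrays gave 92 to 419 higher and 43 to 176 lower, no filter gave 157 and 77, the mean of all probe sets gave 231 lower, the described pairs as replicate block gave 114 and 48, and the block over 38 arrays gave 1 and 2. Among single genes, EEF2K, the kinase of an elongation factor, reversed to -0.53 with the mean of all probe sets. The cause of these shifts was not tested. The fit over 38 arrays also ended the calls of 56 named genes against the controls, WIPI1, IRF9, SLC2A3, ID3, CEMIP, MYL10, MSH6 and POLE2 among them. Signals near the floor, as on the controls for MYCT1 and C5AR1, limit how exactly the large changes are known.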
